A study of Mus musculus with 11 samples.

Results

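The 11 arrays of a mouse kidney series labelled embryonic day 17 fell into 2 groups by their titles, and this account compares those groups. Titles beginning R2E17 or R2NB marked 5 arrays, and titles beginning E17R2 marked 6, so that the comparison took in all 11 of 11 arrays. The R2E17 series held 1 wild-type array (replicate 3) and 1 Robo2 homozygous array (replicate 6). The R2NB series held 3 Robo2 homozygous arrays (replicates 3, 4 and 5), and the sources used here do not say what the letters NB stand for. The E17R2 series held 3 wild-type arrays (replicates 1, 3 and 7) and 3 Robo2 homozygous arrays (replicates 2, 8 and 9). Every array carried the same tissue label, kidney at embryonic day 17, and no other age, treatment or agent is named. The titles of the R2NB arrays do not carry E17 as the others do, and whether the day 17 label holds for those 3 arrays could not be checked here. The labels do not name the Robo2 allele, the strain, or whether each array came from a separate animal, and some of their free text speaks of human brain, against the organism and tissue labels. What the p-values measure is thus the variation among these arrays, which could be technical only.

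The 2 groups of arrays had been normalized apart before deposit. Median deposited intensity lay between 46.8 and 53.2 on the 5 R2E17 and R2NB arrays and between 23.4 and 24.5 on the 6 E17R2 arrays. Each array was therefore reduced to the rank order of its 45037 probe sets, and the ranks were given the values of 1 shared distribution, called the rank-matched log2 level here. A difference of 1 on this scale is 2-fold. Because the title series, the normalization and any difference in stage, dissection or hybridisation run together, they cannot be told apart in any value that sets the 5 arrays against the 6.

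In the mouse, nephrons form from progenitor cells at the edge of the kidney while older nephrons deeper in the organ elongate and mature. Maturing proximal tubule cells switch on transporters, brush border enzymes and gluconeogenesis, cells of the thick ascending limb start to make uromodulin, and dividing progenitors become a smaller share of the organ. Red cells change over the same period from yolk-sac cells that carry embryonic globins to cells from the fetal liver that carry adult globins. Robo2 is a receptor for the guidance ligand Slit, and in the early kidney the pair restrict where the ureteric bud grows out.

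The 5 R2E17 and R2NB arrays held far more transcript of late proximal tubule genes than the 6 E17R2 arrays, and far less embryonic globin. Over 18193 genes, 3943 were higher (21.7% of those tested) and 4876 were lower (26.8%) in the 5 arrays than in genotype-matched E17R2 arrays (limma, Benjamini-Hochberg adjusted p under 0.05). With a difference of at least 2-fold as well, 548 genes were higher (3.01%) and 333 were lower (1.83%). All 5 arrays lay above all 6 for 2859 genes (15.7%) and below all 6 for 3326 genes (18.3%). Nearly every second gene passed the test alone. Each gene group below is therefore given with its count at 2-fold or more, to be set against these shares. The groups and their members were chosen with earlier results of these data known, so such a count is no independent test.

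Kap, which encodes the androgen-regulated protein of the proximal tubule, stood at 10.76 on the R2E17 wild-type array, 11.21 on the R2E17 homozygous array and 11.60, 11.69 and 11.70 on the R2NB arrays. On the E17R2 arrays it stood at 6.82, 6.24 and 7.61 in wild-type and at 7.61, 6.67 and 6.91 in homozygous kidneys. The groups lay far apart, at 11.39 ± 0.41 (SD, n = 5) and 6.98 ± 0.54 (SD, n = 6), a genotype-matched difference of 4.36 (SE 0.27, limma adjusted p = 2.99e-05) or 20.6-fold. Among the probe sets of its own array, Kap ranked between the 97.2 and 98.9 percentiles on the 5 arrays and between the 62.5 and 76.0 percentiles on the 6.

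G6pc and Pck1 encode the last and the first committed enzymes of gluconeogenesis, a pathway of liver and proximal tubule. G6pc measured 8.86 and 8.74 on the R2E17 wild-type and homozygous arrays and 8.64, 9.80 and 8.95 on the R2NB arrays. The E17R2 arrays gave 5.0, 5.37 and 5.51 in wild-type and 5.0, 4.84 and 4.41 in homozygous kidneys, so no E17R2 array came within reach of the lowest of the 5. The difference was 4.14 (SE 0.23, limma adjusted p = 2.23e-05), or 17.6-fold. For Pck1 the 5 arrays ran from 8.63 to 9.74 and the 6 from 5.05 to 6.01, a difference of 3.72 (SE 0.23, limma adjusted p = 2.83e-05). The size for Pck1 rests on its brightest probe set: with the mean over its 3 probe sets the difference was 1.86.

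Umod encodes uromodulin, the main urinary protein, made by the thick ascending limb. It stood at 11.37 and 10.30 on the R2E17 wild-type and homozygous arrays and at 10.64, 11.56 and 11.04 on the R2NB arrays. The E17R2 values were 8.54, 8.92 and 8.97 in wild-type and 8.05, 8.55 and 7.34 in homozygous kidneys. Here too the groups did not overlap, and the difference was 2.84 (SE 0.26, limma adjusted p = 0.000113), or 7.15-fold.

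Hbb-y, an embryonic beta-type globin, ran the other way. It measured 3.44 and 4.64 on the R2E17 wild-type and homozygous arrays and 2.78, 2.75 and 3.49 on the R2NB arrays. On the E17R2 arrays it measured 8.59, 8.48 and 8.33 in wild-type and 8.43, 8.32 and 8.38 in homozygous kidneys, a spread of only 0.1 (SD, n = 6). It was 31.4-fold lower in the 5 arrays, a difference of -4.97 (SE 0.15, limma adjusted p = 5.12e-06), and its other 2 probe sets differed by -5.10 and -4.24.

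**Figure D1:**
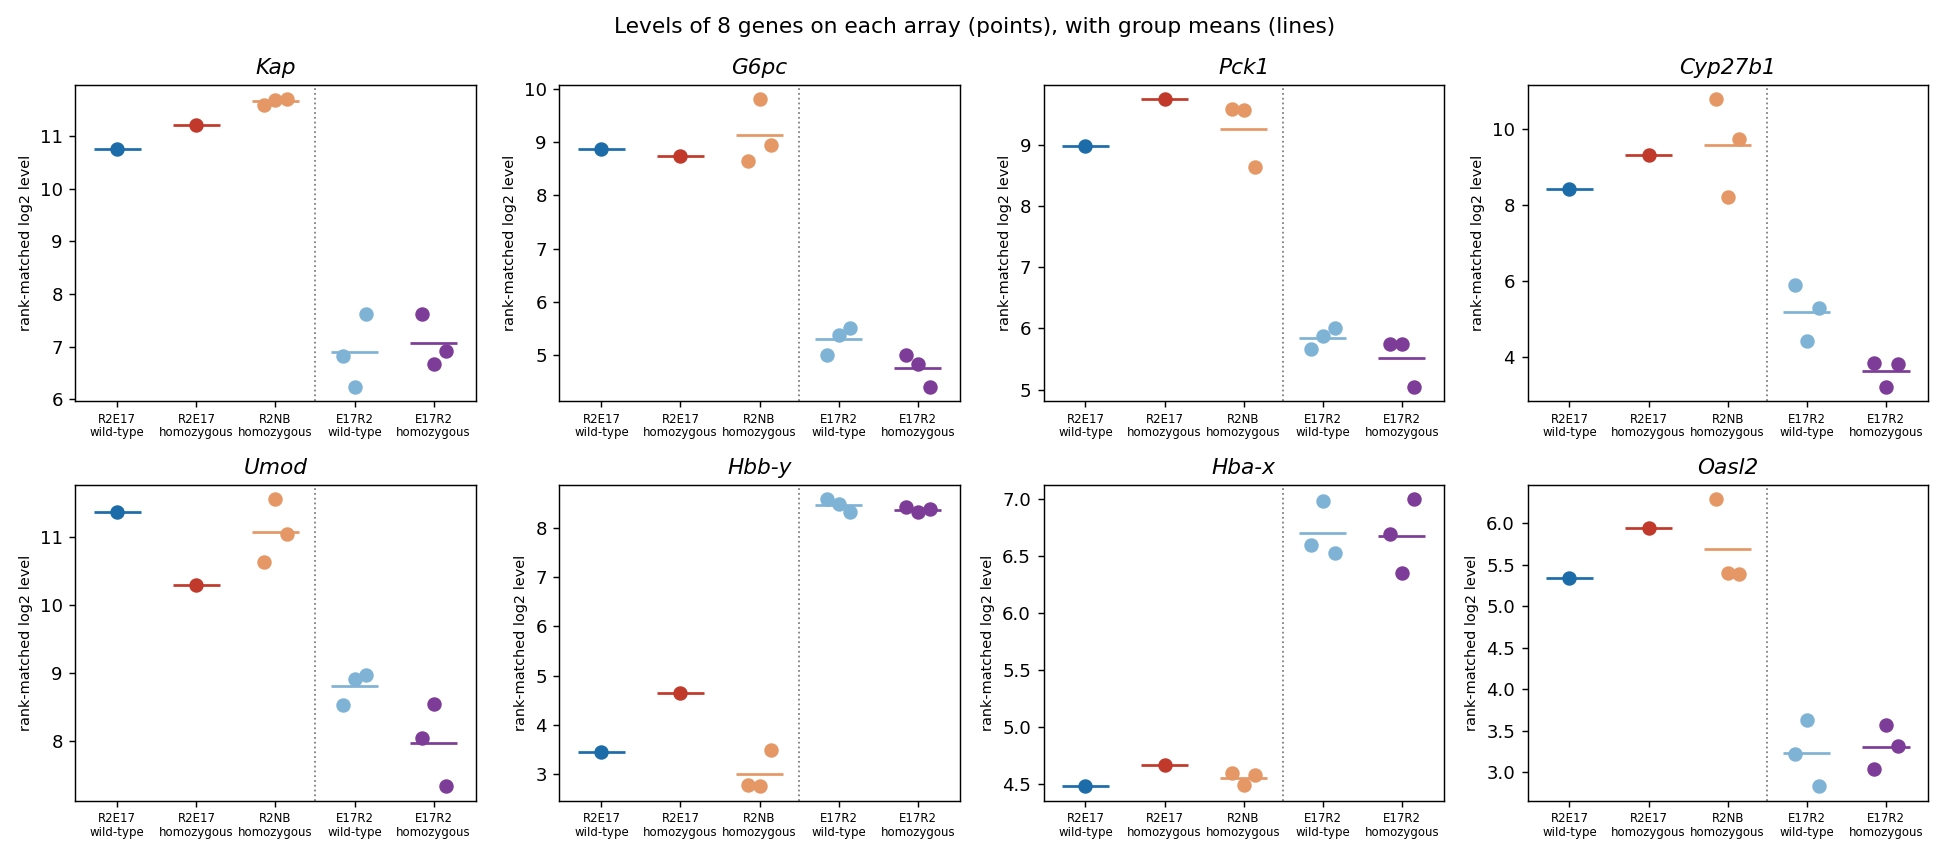
Rank-matched log2 level (vertical axis) of 8 genes on each of the 11 arrays, grouped along the horizontal axis by title series and genotype; each point is an array, each line a group mean, and the dotted line separates the arrays normalized together (the vertical axes do not start at 0). For Kap, G6pc, Pck1, Cyp27b1, Umod and Oasl2 all 5 arrays on the left lie above all 6 on the right, and for Hbb-y (2.75 to 4.64 against 8.32 to 8.59) and Hba-x they lie below.

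The 250 bases before the start sites of these 5 genes are shown because the 5 genes are the markers named for this comparison. The sequences are those of RefSeq, build GRCm38.p6, written 5′ to 3′ on the gene's strand. Capitals mark TATAAA (the TATA box), read on both strands, and in Hbb-y the CCAAT box; the Pck1 and Umod windows held no TATAAA.
Kap, chr6:133853668-133853917, minus strand: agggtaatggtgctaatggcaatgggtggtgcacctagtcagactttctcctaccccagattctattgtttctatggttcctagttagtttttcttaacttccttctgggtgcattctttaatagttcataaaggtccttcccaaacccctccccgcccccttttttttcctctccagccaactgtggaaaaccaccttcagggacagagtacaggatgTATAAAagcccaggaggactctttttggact
G6pc, chr11:101367466-101367715, plus strand: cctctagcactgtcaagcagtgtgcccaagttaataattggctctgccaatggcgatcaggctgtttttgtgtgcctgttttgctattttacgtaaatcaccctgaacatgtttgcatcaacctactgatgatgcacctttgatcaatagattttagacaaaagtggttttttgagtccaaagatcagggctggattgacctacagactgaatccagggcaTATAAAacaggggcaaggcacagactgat
Pck1, chr2:173152823-173153072, plus strand: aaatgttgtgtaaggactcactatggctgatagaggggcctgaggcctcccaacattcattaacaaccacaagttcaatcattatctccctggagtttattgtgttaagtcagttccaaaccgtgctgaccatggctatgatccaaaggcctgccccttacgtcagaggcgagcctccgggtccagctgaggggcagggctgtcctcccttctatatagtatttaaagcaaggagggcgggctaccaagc
Umod, chr7:119479263-119479512, minus strand: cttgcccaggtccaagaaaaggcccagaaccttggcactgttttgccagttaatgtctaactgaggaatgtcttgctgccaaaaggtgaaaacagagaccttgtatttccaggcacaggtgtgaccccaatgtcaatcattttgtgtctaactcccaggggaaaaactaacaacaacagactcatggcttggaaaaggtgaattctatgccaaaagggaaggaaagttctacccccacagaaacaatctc
Hbb-y, chr7:103853208-103853457, minus strand: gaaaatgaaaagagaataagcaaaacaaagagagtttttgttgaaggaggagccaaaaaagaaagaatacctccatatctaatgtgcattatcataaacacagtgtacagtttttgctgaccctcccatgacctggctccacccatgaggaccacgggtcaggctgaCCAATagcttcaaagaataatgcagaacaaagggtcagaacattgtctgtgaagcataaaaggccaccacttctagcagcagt
A TATAAA stood at bases -31 to -26 in Kap and at -29 to -24 in G6pc, counted from the start site. The CCAAT box stood at -83 to -79 in Hbb-y. Over the 6 proximal tubule lists described next, 14.18% of 134 promoters held TATAAA, against 12.37% of all 32851 promoters in the table. CCAAT, also read on both strands, was found in 30.60% and 33.85% of the same promoters. A match describes the letters in this window and is no measure of binding.

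Proximal tubule genes were covered by 6 lists, written for late-onset genes, gluconeogenesis, ion and sugar transport, amino acid and peptide transport, organic ion transport, and the brush border. Together they held 122 measured genes, of which 104 were higher and 1 was lower in the 5 arrays, and 79 were at least 2-fold higher, with a median difference of 1.37. The median over all 18193 genes was -0.048.

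In the late-onset list, 17 of 24 genes were higher, 16 of them at least 2-fold, and the median difference was 1.75. Gpx3, the secreted glutathione peroxidase that the proximal tubule supplies to plasma, stood at 12.02 to 12.78 on the 5 arrays and at 8.82 to 10.27 on the 6, a difference of 2.98 (SE 0.24). Napsa, an aspartic protease, differed by 2.32 (SE 0.17). The list's 1 gene past the threshold in the other direction was Acsm3, a medium-chain acyl-CoA synthetase, at -0.76 (SE 0.13), while its family member Acsm1 stood at 3.41 (SE 0.28).

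The gluconeogenesis list, Pck1 and G6pc included, had 13 of 16 genes higher, 6 of them at least 2-fold, none past the threshold in the other direction, and a median difference of 0.86. Fbp1, fructose-1,6-bisphosphatase, measured 11.45 on the R2E17 wild-type array and 11.89 to 12.37 on the other 4 of its group, against 8.68 to 10.34 on the E17R2 arrays, a difference of 2.56 (SE 0.22). Pcx, pyruvate carboxylase, differed by 1.70 (SE 0.17), and Slc37a4, the transporter that carries glucose 6-phosphate to G6pc, by 1.10 (SE 0.15).

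Of the transporters of sugar, phosphate, sulfate, sodium and bicarbonate, 21 of 23 were higher and 17 at least 2-fold, with a median of 1.45. Slc5a12, a lactate transporter, ran from 7.20 to 9.10 on the 5 arrays and from 4.60 to 6.88 on the 6, and its lowest value among the 5 was that of the R2E17 wild-type array and among the 6 that of E17R2 homozygous 9. The phosphate transporter Slc34a3 differed by 2.42 (SE 0.14) and the bicarbonate transporter Slc4a4 by 1.89 (SE 0.14). Amino acid and peptide transporters gave 14 of 17 higher, 10 at least 2-fold, and a median of 1.33, led by Slc7a7 at 2.60 (SE 0.13), Slc6a18 at 2.24 (SE 0.21) and Slc3a1 at 2.18 (SE 0.18). Organic ion transporters gave 17 of 20 higher, 14 at least 2-fold, with a median of 1.55. Slc22a6, the organic anion transporter of the basolateral membrane, differed by 2.13 (SE 0.23) and the cation transporter Slc22a2 by 2.0 (SE 0.25).

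All 22 measured genes of the brush border list were higher, 16 of them at least 2-fold, and for 21 of them the 5 arrays lay above all 6. Lrp2 encodes megalin, the receptor for filtered proteins, and measured 10.62 on the R2E17 wild-type array, 11.26 on the R2E17 homozygous array and 10.83 to 11.15 on the R2NB arrays. The E17R2 arrays gave 9.76, 9.96 and 9.80 in wild-type and 9.33, 9.37 and 8.39 in homozygous kidneys, with replicate 9 the lowest. Alpl, tissue-nonspecific alkaline phosphatase, had an adjusted p of 5.14e-06 (limma) at a difference of 1.83 (SE 0.07), with SDs of 0.23 (n = 5) and 0.20 (n = 6) within the groups. Miox, Gatm and Anpep differed by 2.71, 2.69 and 2.20.

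The segments after the proximal tubule were higher as well. In the thick ascending limb list, 14 of 19 genes were higher, 8 at least 2-fold, and 2 lower, with a median of 0.91. Slc12a1, the sodium-potassium-chloride cotransporter that loop diuretics block, stood at 11.52 to 11.89 on the 5 arrays and 9.5 to 10.58 on the 6, a difference of 1.6 (SE 0.16). Kcnj1, the potassium channel that works beside it, differed by 1.68 (SE 0.16). Cldn14, a claudin that limits calcium uptake in this segment, was lower at -0.52 (SE 0.07), and so was Ppp1r1a at -0.63 (SE 0.23), a call that was lost when single arrays, E17R2 homozygous 9 among them, were left out.

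Distal and connecting tubule genes gave 13 of 16 higher, 6 at least 2-fold, and 1 lower, with a median of 0.71. Slc12a3, the thiazide-sensitive sodium-chloride cotransporter, measured 8.25 to 9.29 against 5.33 to 6.98, a difference of 2.70 (SE 0.26), while a second, dim probe set gave 0.08. Kl, the co-receptor for the phosphate hormone FGF23, differed by 2.5 (SE 0.21). Principal cells of the collecting duct gave 13 of 19 higher, 5 at least 2-fold, and 2 lower, with a median of 0.88. Aqp2, the water channel that vasopressin controls, stood at 9.19 to 10.06 against 7.09 to 8.30, and the vasopressin receptor Avpr2 differed by 1.23 (SE 0.23). Intercalated cells, which move acid and base, gave 16 of 18 higher, 9 at least 2-fold, and a median of 1.05, with Oxgr1, a receptor for oxoglutarate, at 6.10 to 6.64 against 3.27 to 4.24. Car15, a carbonic anhydrase, differed by 2.34 (SE 0.18), and the proton pump subunit Atp6v0a4 by 1.71 (SE 0.27).

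Among 22 tubule transcription factors, 14 were higher, 1 was lower and 3 were at least 2-fold higher, with a median of 0.66. Nr1h4, the bile acid receptor FXR, differed by 2.25 (SE 0.12), with 6.20 to 6.91 on the 5 arrays and 4.15 to 4.65 on the 6. Hnf4a, a driver of proximal tubule differentiation, lay within a narrow band of 10.44 to 10.59 on the 5 arrays and between 8.85 and 10.28 on the 6, a difference of 0.97 (SE 0.19); its other 3 probe sets, all dimmer, gave 0.26, 0.88 and 0.28. Emx1 was lower, at -0.62 (SE 0.08), with a second, dim probe set at 0.16. Fatty acid oxidation and peroxisome genes followed at a median of 0.49, with 21 of 30 higher, 6 at least 2-fold. Ehhadh differed by 2.05 and Cpt1a, the carnitine acyltransferase that admits fatty acids to mitochondria, by 1.44. Of 37 respiratory chain genes 17 were higher, none of them 2-fold, 1 was lower, and the median was 0.12.

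**Figure D2:**
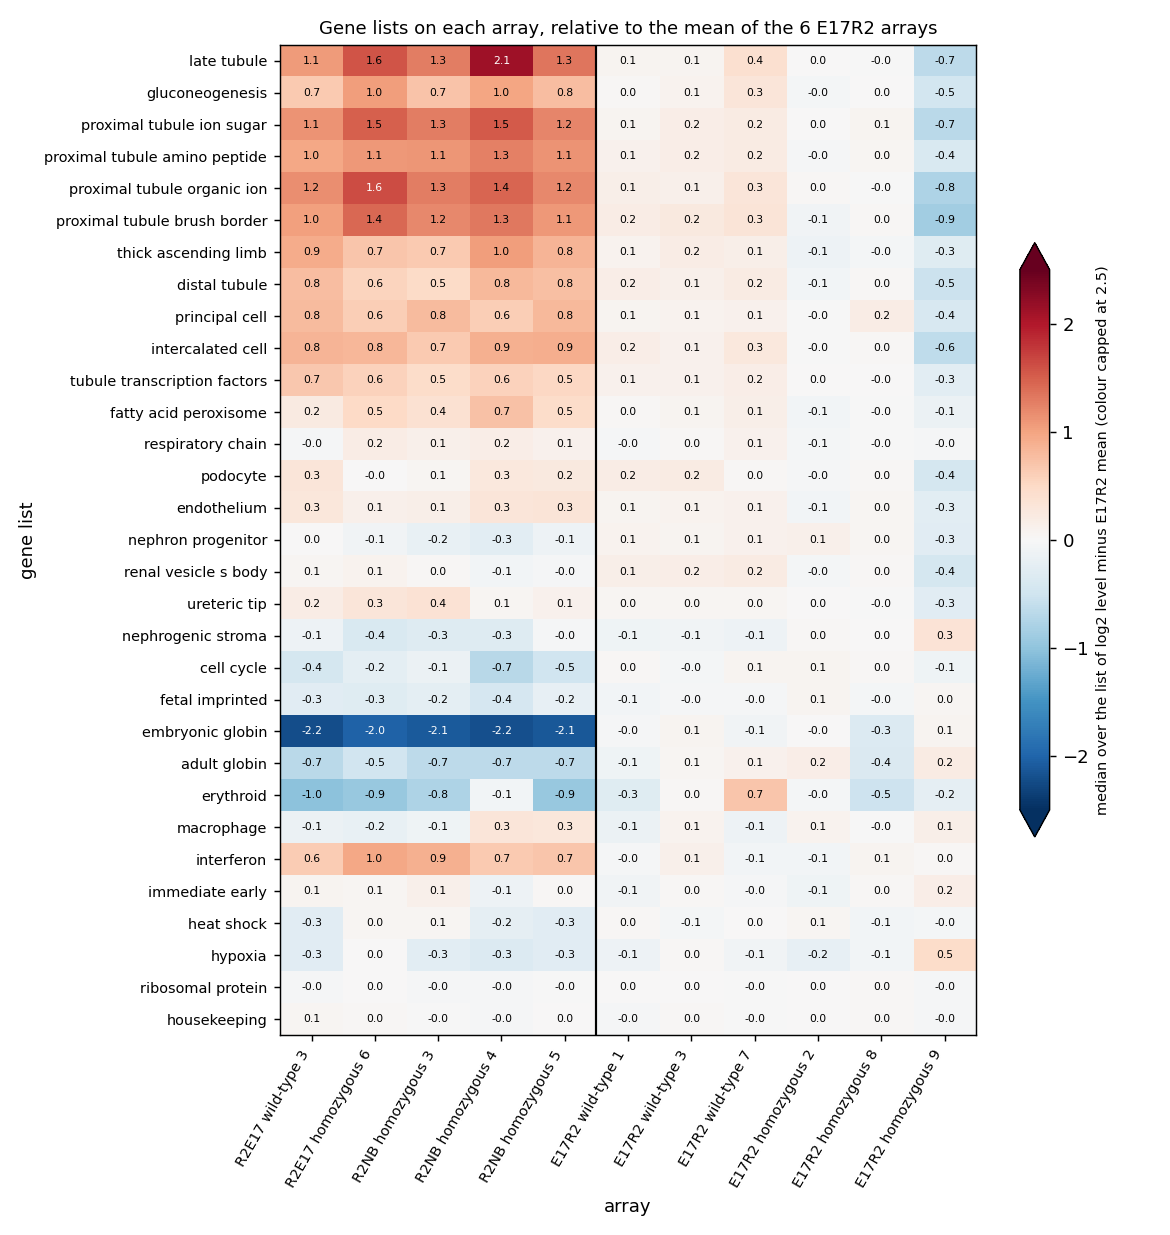
Gene lists (rows) on each array (columns): every cell is the median, over the list's measured genes, of the log2 level on that array minus the mean of the 6 E17R2 arrays, with red above and blue below; the black line separates the 5 arrays from the 6. The brush border list lies between 1.02 and 1.43 on the 5 arrays and between -0.86 and 0.33 on the 6, where E17R2 homozygous 9 is the lowest. The medians of the ribosomal protein and housekeeping lists, though not each gene, stay within 0.05 of 0.

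Among the 10 largest rises were the genes at both ends of vitamin D metabolism. Cyp27b1, which makes the active hormone in the proximal tubule, measured 8.41 and 9.31 on the R2E17 wild-type and homozygous arrays and 10.78, 8.21 and 9.73 on the R2NB arrays. The E17R2 arrays gave 5.89, 4.42 and 5.29 in wild-type and 3.84, 3.23 and 3.81 in homozygous kidneys. Its difference of 5.34 (SE 0.49, limma adjusted p = 0.000116) was the largest of all genes past the threshold, although its spread was wide, and within the E17R2 arrays all 3 wild-type values lay above all 3 homozygous ones. Cyp24a1, which breaks the hormone down, differed by 3.20 (SE 0.55) with 7.91 to 10.86 against 5.60 to 7.27. The remaining genes among the 10 largest rises were Serpina6 (corticosteroid-binding globulin) at 4.08, Rdh16 (a retinol dehydrogenase) at 3.73, Ranbp3l at 3.61, Acsm1 at 3.41 and Slc22a29, of the organic anion transporter family, at 3.13.

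Glomerular and vascular genes differed less. Of 23 podocyte genes 10 were higher and none lower, with a median of 0.29, and the 2 that reached 2-fold were Col4a4 at 1.76 (SE 0.21) and Col4a3 at 1.69 (SE 0.19). Both encode chains of the collagen IV network of the mature glomerular basement membrane. Col4a3 stood at 7.23 to 8.12 on the 5 arrays and at 5.69 to 6.24 on the 6. Of 21 endothelial genes 11 were higher and 1 lower, none 2-fold, with Plvap of fenestral diaphragms at 0.88 (SE 0.09).

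Genes of nephron progenitors and of the renal vesicle to S-shaped body showed no common direction. Of 21 nephron progenitor genes 2 were higher and 6 lower, none 2-fold, and the median was -0.09. Osr1, an early regulator of the renal mesenchyme, differed by -0.96 (SE 0.21), whereas Hoxd11 differed by 0.78 (SE 0.10). From renal vesicle to S-shaped body, 9 of 24 genes were higher, 2 at least 2-fold, and 4 lower, none 2-fold, with Lhx1 at 0.73 (SE 0.16). At the ureteric bud tip 5 of 16 were higher, 1 at least 2-fold, and none lower. Etv5, a target of Ret signalling, differed by 0.64 (SE 0.13). Stroma gave 3 of 26 higher, none 2-fold, and 8 lower, 2 of them 2-fold. Of the 26 differences 23 were below 0, and the median was -0.28. That median was -0.04 in wild-type kidneys alone and -0.37 in homozygous kidneys. On single arrays, relative to the E17R2 mean, the list ran from -0.39 to -0.03 on the 5. On the 6 it ran from -0.13 to 0.34, with E17R2 homozygous 9 the highest, so the groups overlapped. Lum, a matrix proteoglycan, measured 9.67 and 8.31 on the R2E17 wild-type and homozygous arrays and 8.43, 9.40 and 10.09 on the R2NB arrays. The E17R2 arrays gave 10.29 to 11.92, a difference of -1.92 (SE 0.32). Lum differed by -0.72 in wild-type kidneys alone and by -2.23 in homozygous kidneys.

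The cell cycle list was lower as a group. Of 39 genes 23 were lower and none higher, 38 of the 39 differences were below 0, and the median was -0.38, but only Ect2, a guanine exchange factor of cytokinesis, reached 2-fold. Ect2 stood at 6.64 to 7.58 on the 5 arrays and at 7.93 to 8.31 on the 6, a difference of -1.20 (SE 0.18). Ccna2, cyclin A2 of S phase and G2, stood at 9.32 to 9.85 against 10.31 to 10.46, a difference of -0.82 (SE 0.10). On single arrays the median of the list relative to the E17R2 mean ran from -0.69 on R2NB 4 to -0.15, so that the size varied among the 5. Of 23 fetal growth and imprinted genes 10 were lower, 2 of them 2-fold, and 1 was higher, with a median of -0.32. Igf2bp3, an RNA-binding protein of fetal tissue, differed by -0.62 (SE 0.07).

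All 3 measured embryonic globins were lower, 2 of them at least 2-fold. Hba-x, the embryonic alpha-type chain, measured 4.48 to 4.67 on the 5 arrays and 6.35 to 7.0 on the 6, a difference of -2.12 (SE 0.14, limma adjusted p = 3.17e-05), and Hbb-bh1 differed by -0.46 (SE 0.15) at low levels. The probe sets left for adult globins, after those shared by several genes were set aside, were dim, at 2.96 to 5.57 for Hba-a1 and Hbb-b2. They differed by -0.63 (SE 0.11) and -0.91 (SE 0.15). The second value comes from a probe set with a cross-hybridisation suffix, and the other Hbb-b2 probe set gave 0.11, so these do not give the level of adult globin. Of 18 other red cell genes 6 were lower, 3 of them at least 2-fold, and none higher, with a median of -0.60. That median was -1.28 in wild-type kidneys alone and -0.37 in homozygous kidneys. Relative to the E17R2 mean, the list was highest on R2NB 4 (-0.06) among the 5 and on E17R2 wild-type 7 (0.70) among the 6. These arrays also had the highest summed liver list of their groups, at 15.18 and 14.39, and the part of liver tissue was not tested. Gata1, the master regulator of red cells, stood at 2.98 to 3.59 against 4.27 to 5.89, a difference of -1.28 (SE 0.26). In whole tissue, fewer red cells and less transcript per cell cannot be told apart, which holds for every cell type named here.

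The other largest falls were those of Bmp5, Nefl, Isl1, Dazl, 2310034C09Rik, Amhr2, Cst12, Rpl39l and Hemgn. Bmp5, a ligand of the bone morphogenetic protein family, stood at 3.92 to 4.30 on the 5 arrays and 6.48 to 7.81 on the 6, a difference of -3.02 (SE 0.20), and its 2 dimmer probe sets gave -1.55 and -0.39. Nefl, a neurofilament subunit, was wide, at 3.76 to 3.97 on 4 of the 5 arrays but at 8.69 on R2NB 5, and at 5.39 to 10.57 on the E17R2 arrays, so the groups overlapped (difference -3.48, SE 1.27, limma adjusted p = 0.0494). Isl1 also overlapped, as did Cst12 (2.68 to 2.97 against 2.87 to 7.91) and Hemgn (2.37 to 5.26 against 4.33 to 8.25). Cst12 and Rpl39l were highest on E17R2 homozygous 2, at 7.91 and 7.78, and without that array their differences were -1.31 and -1.36. The calls of Nefl, Isl1, Cst12 and Hemgn were each lost when single arrays were left out. Dazl marks germ cells, and Amhr2 is the receptor for anti-Müllerian hormone of the gonads and their ducts. In the gonad list, which holds Dazl, 5 of 14 genes were lower, 4 of them at least 2-fold, and 1 higher. The summed level of that list lay between 8.45 and 8.84 on the 5 arrays and between 8.78 and 10.87 on the 6, its highest value being that of E17R2 homozygous 2. The part of such tissue in these falls was not tested.

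Interferon-response genes were also higher in the 5 arrays. Of 19 genes 13 were higher, 8 of them at least 2-fold, and 1 was lower, with a median of 0.68. Oasl2, an oligoadenylate synthetase-like protein, stood at 5.34 and 5.94 on the R2E17 wild-type and homozygous arrays and at 6.29, 5.40 and 5.39 on the R2NB arrays. The E17R2 arrays gave 3.22, 3.63 and 2.83 in wild-type and 3.04, 3.57 and 3.31 in homozygous kidneys, a difference of 2.38 (SE 0.23). Ifit1, which binds viral RNA, ran from 4.35 on the R2E17 wild-type array to 6.38 on the R2E17 homozygous array, against 2.70 to 3.59, a difference of 2.31 (SE 0.25). Usp18 and Rtp4 differed by 1.74 and 1.59, whereas Ifi27 was lower at -0.41 (SE 0.14), a call that was lost when single arrays were left out. The Ifit1 promoter is shown (RefSeq, GRCm38.p6) because it carries the element of the group, GAAANNGAAA, here in capitals as its reverse complement.
Ifit1, chr19:34640639-34640888, plus strand: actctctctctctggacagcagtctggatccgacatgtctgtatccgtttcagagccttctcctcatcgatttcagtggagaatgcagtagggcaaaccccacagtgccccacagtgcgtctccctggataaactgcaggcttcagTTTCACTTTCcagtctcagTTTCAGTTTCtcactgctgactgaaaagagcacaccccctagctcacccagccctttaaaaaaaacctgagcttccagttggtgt
The element stood at bases -104 to -95 and -85 to -76. It was found in 37.50% of 16 promoters of the interferon list, in 2.99% of the 134 promoters of the proximal tubule lists and in 2.98% of all 32851.

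Of 26 immediate early genes, which respond to handling, 6 were higher and 6 lower, shares near the 21.7% and 26.8% of all genes, and 1 was at least 2-fold lower. The median was -0.02. Klf2 differed by 0.96 (SE 0.11) and Egr1 by 0.69 (SE 0.10), but Egr3 by -0.62 (SE 0.11) and Nr4a2 by -1.29 (SE 0.22). The other, dimmer probe sets of Nr4a2 ran from -0.51 to 0.87. Heat shock genes gave 4 of 17 lower, a share near the 26.8% of all genes, and none higher, with none at 2-fold. Among 20 hypoxia genes 7 were lower, 3 of them at least 2-fold, and 1 was higher. Hk2, hexokinase 2, stood at 6.66 on the R2E17 wild-type array, 8.11 on the R2E17 homozygous array and 6.71 to 7.72 on the R2NB arrays, against 8.44 to 9.09, a difference of -1.46 (SE 0.20). Ndrg1 ran against its list at 1.40 (SE 0.14). The injury list had no common direction, with 9 differences above 0, 10 below and a median of -0.03. Of its 19 genes 5 were higher, 2 of them at least 2-fold, and 2 lower. Timp1 differed by -0.75 and Mt2 by -0.73, against Lcn2 at 1.63 (SE 0.29) and Havcr1 at 1.14 (SE 0.19). Lcn2 and Havcr1 mark damaged tubule cells, and Havcr1 was dim at 4.34 to 5.41 against 3.41 to 3.99, with a second probe set at 0.22.

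Genes expected in every cell are given for reference. The shared distribution holds the median of all genes near 0 (-0.048), so medians near 0 in these lists are no independent check of the scale. Over 42 ribosomal protein genes the median difference was 0.00, with 2 higher and 7 lower, and over 15 reference genes it was -0.02, with 2 higher and 2 lower. Control probe sets, which do not report kidney genes, differed between the groups as well. Relative to the array's median, the poly-A spikes added to the RNA stood at 1.97 ± 0.17 (SD, n = 5) and 0.76 ± 0.11 (SD, n = 6), a difference of 1.22 (exact permutation test, 2-sided, p = 0.00216, the smallest that 462 splits allow, adjusted over 4 measures 0.00433). Hybridisation controls stood at 6.12 ± 0.05 (SD, n = 5) and 5.56 ± 0.07 (SD, n = 6), a difference of 0.56 with the same exact p and adjusted p. The 3′ minus 5′ difference of Actb, which grows as RNA is degraded or shortened in labelling, was 0.74 ± 0.23 (SD, n = 5) and 0.46 ± 0.09 (SD, n = 6), a difference of 0.28 (exact permutation p = 0.00649, adjusted 0.00866). That of Gapdh differed by 0.17 (exact permutation p = 0.0758), and its highest value, 0.70, was that of the R2E17 wild-type array. The part of these controls in the gene differences was not tested.

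**Figure D3:**
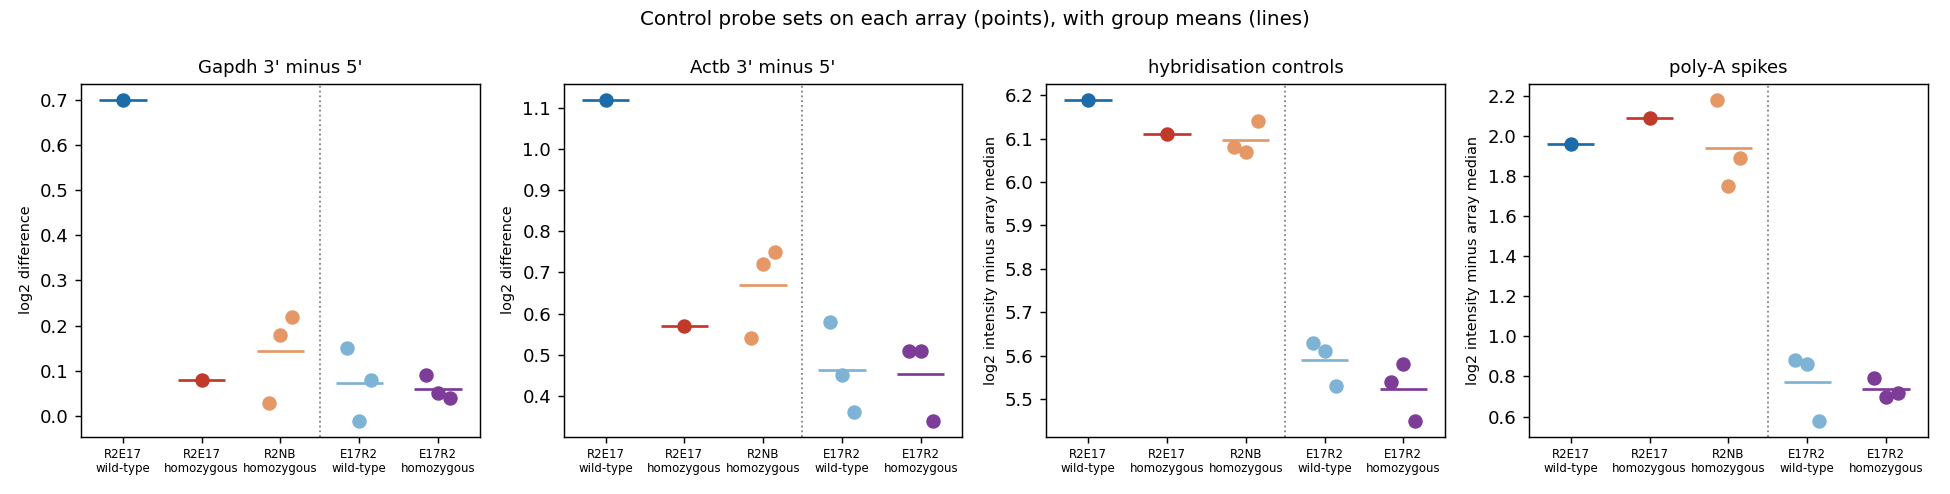
Measures from the control probe sets of each array (points) with group means (lines), by title series and genotype: the 3′ minus 5′ log2 difference of Gapdh and of Actb, and the log2 intensity of hybridisation controls and poly-A spikes minus the array's median (the vertical axes do not start at 0). Both kinds of added control lie higher on all 5 arrays left of the dotted line (6.07 to 6.19 and 1.75 to 2.18) than on the 6 to its right (5.45 to 5.63 and 0.58 to 0.88).

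Genes of neighbouring organs differed from array to array, within both groups. The summed level of 11 adrenal cortex genes was 13.11 on R2NB 4 and 13.07, 12.90 and 11.72 on E17R2 wild-type 1, wild-type 3 and homozygous 2, against 10.51 to 11.23 on the rest. The liver list reached 15.18 on R2NB 4, 14.39 on E17R2 wild-type 7 and 13.13 on E17R2 homozygous 2, and the rest lay between 10.97 and 11.68. The smooth muscle list reached 16.01 on E17R2 homozygous 9 and lay between 13.07 and 13.89 elsewhere. Alb, Hsd3b1 and Tpm2, from the liver, adrenal and smooth muscle lists, had differences between the groups of -2.18 (SE 1.42), -1.27 (SE 1.87) and -0.62 (SE 0.46), all short of the threshold. E17R2 homozygous 9 was also the array with the lowest tubule lists of its group. With the arrays left out in turn, that array included, the difference stayed past the threshold for Kap, G6pc, Pck1, Umod and Hbb-y. Without E17R2 homozygous 9, 477 genes were at least 2-fold higher and 300 lower, against 548 and 333 with it. The brain list, measured because of the free-text labels, summed to 9.14 to 10.43 on the 5 arrays and 9.26 to 11.99 on the 6, with 2 of 16 genes higher and 4 lower, 2 of the latter at least 2-fold. Its myelin gene Mbp stood at 7.52 to 8.21 and its inhibitory neuron gene Gad1 at 3.02 to 3.57 over all 11 arrays.

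Each genotype was then taken alone. In wild-type kidneys the R2E17 array was set against the 3 E17R2 arrays, and its spread was assumed to be that of the other groups. In that comparison 306 genes were at least 2-fold higher past the threshold (1.68%) and 299 lower (1.64%). In homozygous kidneys the 4 R2E17 and R2NB arrays were set against the 3 E17R2 arrays, and 612 were higher (3.36%) and 367 lower (2.02%). Differences in the 2 genotypes, which share no array, correlated across the 18193 genes at Pearson's r of 0.73 and Spearman's rho of 0.74, and 78.9% of genes had the same sign. Genes are not independent replicates, and both comparisons cross the same 2 normalizations. Of the genes 2-fold different in homozygous kidneys 98.2% had the same sign in wild-type. Higher genes shared between the genotypes numbered 225, which is 73.5% of the wild-type genes and 36.8% of the homozygous genes. For lower genes it was 140, or 46.8% and 38.1%.

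All 5 markers passed the test in both genotypes. Kap differed by 3.87 (SE 0.48) in wild-type and 4.48 (SE 0.32) in homozygous kidneys, G6pc by 3.56 and 4.28, Pck1 by 3.12 and 3.86, Umod by 2.56 and 2.91, and Hbb-y by -5.03 and -4.96. Proximal tubule lists were smaller in the wild-type comparison, with the brush border median at 0.77 against 1.55 and the organic ion median at 0.91 against 1.67. At least 2-fold higher past the threshold were 5 and 18 of the 22 brush border genes. For Slc5a12 the wild-type difference was 0.72 (SE 0.51, limma adjusted p = 0.362) and the homozygous 3.45 (SE 0.34, adjusted p = 0.000249), with the lowest baseline on E17R2 homozygous 9, at 4.60. The test of the difference itself, over the R2E17 and E17R2 arrays, gave 2.99 (SE 0.73, limma adjusted p = 0.359) and did not pass. The embryonic globin median was -2.22 and -2.09, the cell cycle median -0.40 and -0.37, and the interferon median 0.55 and 0.69.

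**Figure D4:**
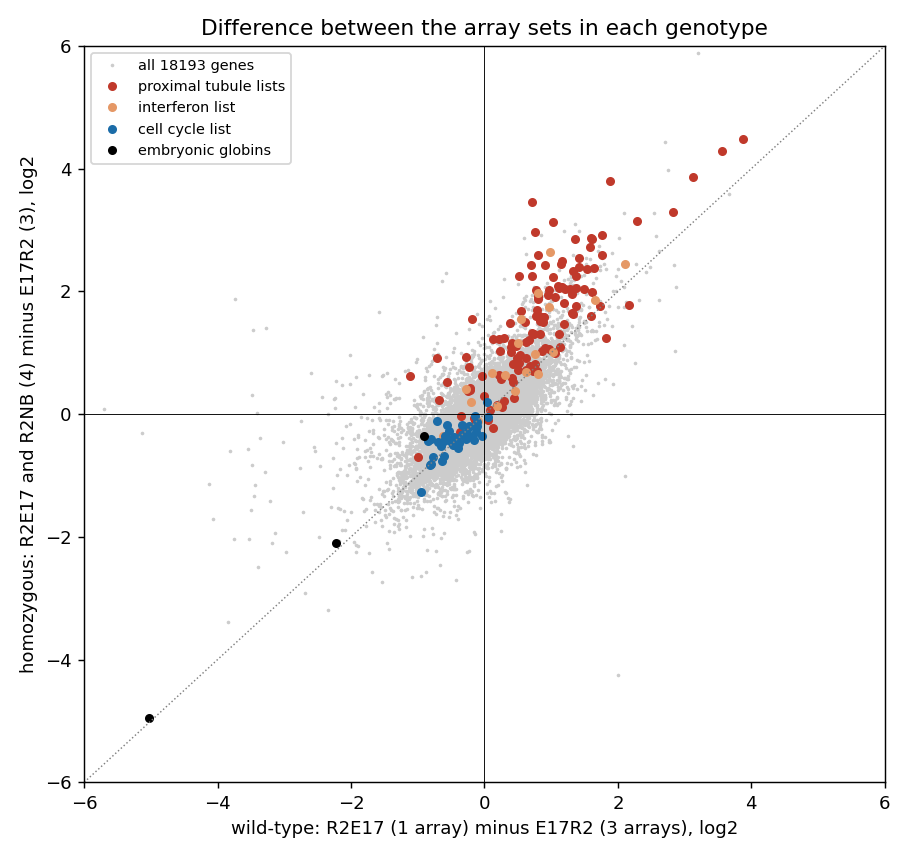
Log2 difference between the array groups in wild-type (horizontal axis, 1 array against 3) and in homozygous kidneys (vertical axis, 4 against 3); grey points are all 18193 genes, coloured points the lists named in the key, and the dotted line marks equal differences. The points follow the diagonal (Pearson's r of 0.73), with proximal tubule genes to the upper right, where most lie above the line, and Hbb-y at the lower left.

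A test of the difference itself, over the R2E17 and E17R2 arrays, called 3 of 18193 genes (0.0165%; 1860 had an unadjusted p under 0.05). It compares 1 array with 1 array on the R2E17 side, so that a call can rest on a single array. Ang, angiogenin, stood at 4.14 on R2E17 homozygous 6, at 7.22 to 7.55 on the other 4 of its group and at 8.38 to 8.62 on the E17R2 arrays (difference of differences -3.28, SE 0.21, limma adjusted p = 0.00142). Rpgrip1, a protein of the photoreceptor cilium, stood at 5.79 on the same array, at 8.18 to 8.32 on the other 4 and at 9.29 to 9.51 on the E17R2 arrays (-2.38, SE 0.14, adjusted p = 0.00142). The genes lie on the same chromosome with 14 measured genes between them. Plekha5 was low only on R2E17 wild-type 3, at 5.99 against 7.84 to 8.36 on the other 10 arrays (2.49, SE 0.26, adjusted p = 0.0462).

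The R2NB arrays could be set against an array normalized with them, R2E17 homozygous 6. Sex-linked transcripts set them apart too: Xist differed by -6.0, and the median over 3 Y-linked genes was 3.89. Title series and sex therefore cannot be told apart in any value of this comparison, Kap included. Only 2 of 18193 genes passed the test (0.011%), Ang and Rpgrip1, which owe their calls to the low values on R2E17 homozygous 6 just given; 498 genes had an unadjusted p under 0.05 and 230 differed 2-fold or more, with no test behind the latter. With 3 arrays against 1 the median standard error per gene was 0.168. The 548 genes that were at least 2-fold higher in the 5 arrays had a median R2NB minus R2E17 difference of -0.02 (interquartile range -0.23 to 0.19), and the 333 lower genes one of 0.01. Kap differed between the R2NB arrays and that array by 0.45, G6pc by 0.39, Pck1 by -0.48, Umod by 0.78 and Hbb-y by -1.64, each short of the threshold, which does not show that their levels were alike.

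Conversely, the contrast with the E17R2 arrays was present without the R2NB arrays. Against the genotype-matched E17R2 arrays, the R2E17 pair had 443 genes at least 2-fold higher past the threshold (2.44%) and 291 lower (1.6%). All 548 higher and all 333 lower genes of the full comparison had the same sign in it, with medians of 1.23 and -1.17; these arrays are part of both comparisons. Tubule lists stood at 1.45 for organic ion transport, 1.43 for ion and sugar transport and 1.22 for the brush border, the interferon list at 0.77 and the embryonic globins at -2.12. For the same lists the R2NB minus R2E17 medians were -0.13, -0.25, -0.17, -0.23 and -0.11. Lists of other tissues moved more between the R2NB arrays and R2E17 homozygous 6, with medians of 2.11 for liver, 1.35 for chromaffin cells and neurons, 0.87 for adrenal cortex and -2.86 for skeletal muscle.

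**Figure D5:**
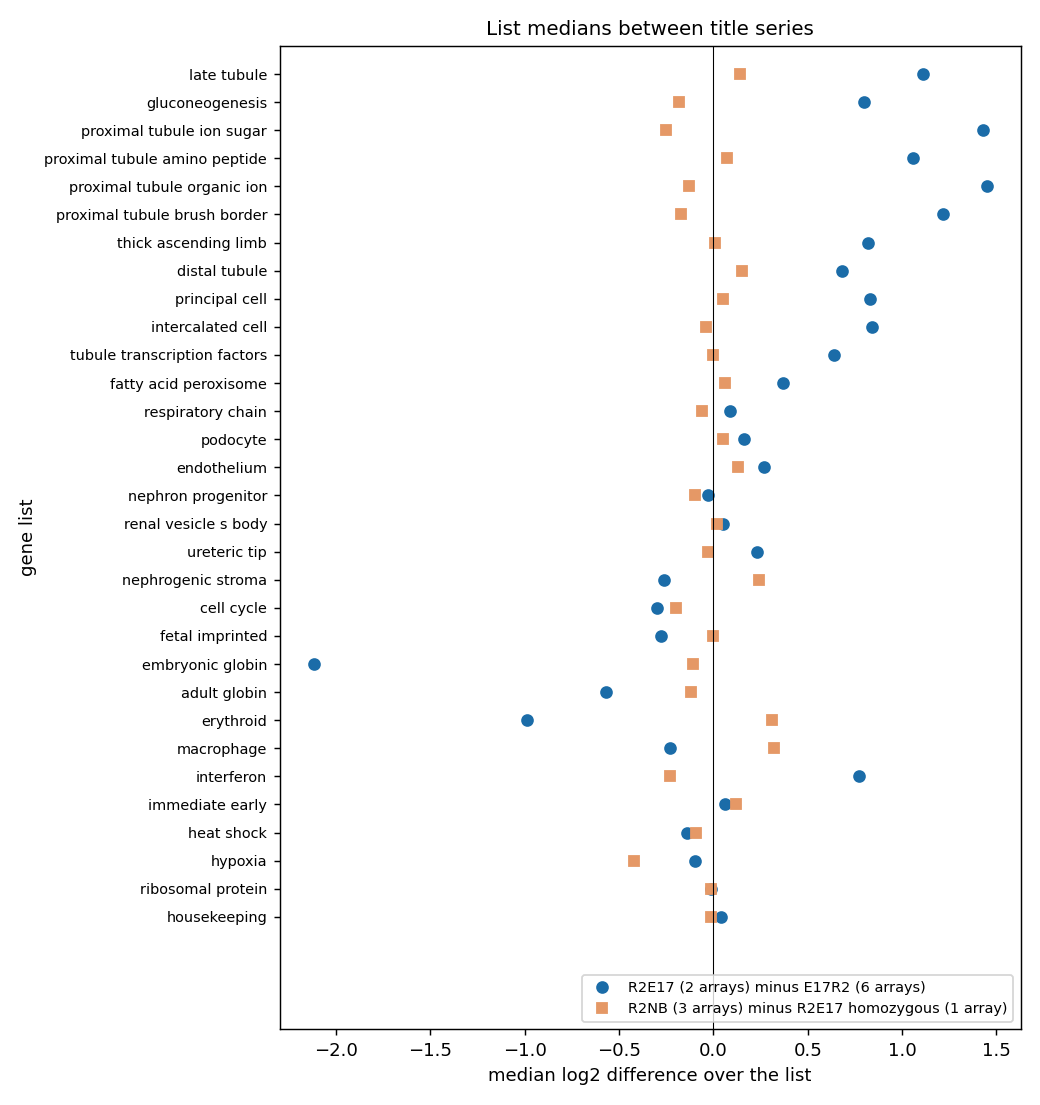
Median log2 difference over each gene list (rows) for the R2E17 pair minus the E17R2 arrays (circles) and for the R2NB arrays minus R2E17 homozygous 6, which were normalized together (squares). Circles of the tubule lists lie between 0.64 and 1.45 and that of the embryonic globins at -2.12, whereas the squares of the lists drawn, which leave out those of other tissues and of sex, lie between -0.42 and 0.32.

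The arrays also differed in the sex-linked transcripts, which bears on Kap because androgen raises it in the adult mouse. Xist was high, at 10.18 to 12.34, on the R2E17 pair and on 4 of the E17R2 arrays, and low, at 4.0 to 5.22, on the 3 R2NB arrays and 2 of the E17R2 arrays. Among Xist-high arrays (2 against 4) Kap differed by 4.32 and among Xist-low arrays (3 against 2) by 4.05. These and the next values are plain differences of means, not matched for genotype. The Xist-low ones set the homozygous R2NB arrays against E17R2 homozygous 2 and wild-type 7, so genotype is mixed into them. For G6pc the values were 3.89 and 3.88, for Cyp27b1 4.52 and 5.01, for Umod 2.5 and 2.57, and for Hbb-y -4.40 and -5.37. Nefl, by contrast, gave -5.05 and -1.05, and Isl1 -3.97 and -0.52. Both genes were highest of the 5 on R2NB 5, an Xist-low array, at 8.69 and 6.69. That array also had the highest summed chromaffin and neuron list of the 5, at 12.14. R2NB 4 came next for that list, with Nefl at only 3.97 and Isl1 at 3.49. Of the 6, the list was highest on E17R2 wild-type 1 (12.03), and both genes on E17R2 homozygous 9. The parts of such tissue and of sex in the falls of Nefl and Isl1 were not tested.

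Robo2 itself was dim. Its probe set stood at 3.53, 4.21 and 3.47 on the E17R2 wild-type arrays and at 2.24, 2.59 and 2.55 on the homozygous ones, which did not overlap. On the other group it stood at 3.50 on the wild-type array and at 3.02, 2.92, 3.42 and 3.51 on the 4 homozygous arrays, which reached the wild-type value. Where this probe set lies relative to the changed part of the gene is not known here, so it does not check the genotype labels. Of 18 Slit and Robo pathway genes 4 were higher, 1 of them at least 2-fold, and 6 lower in the 5 arrays. Over all genes the shares were 21.7% higher and 26.8% lower. Robo3 differed by 1.11 (SE 0.11), at low levels of 4.27 to 4.60 against 3.05 to 3.53.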

How the data were processed

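The authors deposited 1 table of intensity values on a linear scale, which the submitters' processing notes credit to RMA, for 45101 probe sets on 11 arrays. The array reader, the RMA version and the reason for separate normalization have no mention in the sources used here. After 64 control probe sets were set aside, within-array ranks were mapped to the mean sorted log2 distribution of the 11 arrays. Of the remaining probe sets 34945 had a single symbol in the platform annotation (updated through Entrez identifiers with a RefSeq table of GRCm38.p6), 932 had several and 9160 were unnamed here. The brightest probe set stood for each of 18193 genes. Groups came from titles and source labels.

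The gene tests used limma (version 3.58.1, R version 4.3.3) with lmFit and eBayes (a mean per group over all 11 arrays, 2-sided, Benjamini-Hochberg over all genes, threshold 0.05). The main contrast weighted the E17R2 genotypes as 1 wild-type to 4 homozygous, like the 5 arrays. The test was checked on simulated data with independent noise for each gene. Those data held no batch, no separate normalization and no shared tissue signal, so the check does not bear on these. Control probe sets were compared on deposited log2 intensity with an exact permutation test. The number of arrays limits the precision, and no filter on dim genes was applied.

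The 45 gene lists and the members were chosen with earlier results of these data known. Of their written symbols 64 were not matched and are not analysed here. Named genes were the 5 markers, Robo2, the 10 largest rises and falls of the main contrast, up to 5 per direction of the smaller contrasts, and from each list up to 6 per direction past the threshold, otherwise up to 3 with the smallest p, plus the 3 highest of other-tissue, handling and sex lists. Alternatives changed the scale, the probe set rule, the dim filter, the model and the arrays included.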

Additional observations from a re-analysis of the deposited data

Results flagged for a closer look

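In groups of 4 to 10 arrays, an array was singled out when its gap to the nearest of the others took up more of the group's range than Dixon's 95% critical value; 44 groups were tested, and chance singles out about 5% of them. G6pc on R2NB 4 (9.80) stood above the other 4 arrays of its group, and Pck1 on E17R2 homozygous 9 (5.05) below the other 5. The Gapdh 3′ minus 5′ difference of R2E17 wild-type 3 (0.70) stood above the other 4.

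Most of these arrays stood apart in the summed log2 level of genes of other tissues or blood. E17R2 homozygous 9 was high for smooth muscle (16.01) and urothelium (12.06) and low for adipose tissue (11.76). E17R2 homozygous 2 was high for the gonad list (10.87). R2NB 4 was high for adrenal cortex (13.11) and liver (15.18), and R2NB 5 for brain genes (10.43). R2E17 homozygous 6 was low for urothelium (9.68) and high for embryonic globins (5.96) within the 5 arrays.

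In 3 genes the difference between R2E17 and E17R2 arrays was not the same in the 2 genotypes by limma's interaction test: Plekha5 (2.49, homozygous minus wild-type), Ang (-3.28) and Rpgrip1 (-2.38). Each rests on a single R2E17 array.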

How the results depend on the processing

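Of 266 named genes past the threshold, 216 kept direction and call with each of the 11 arrays left out in turn and none turned direction; 158 kept both under the other 10 alternatives and 131 under 3 more, by Xist level, chosen after seeing the data. Kap stayed between 4.01 and 4.64, G6pc between 3.77 and 4.28, Umod between 2.44 and 3.07, Hbb-y between -5.37 and -4.24 and Pck1 between 1.86 (mean over probe sets) and 3.87. Against 8819 calls of the main contrast there were 5650 without the R2NB arrays (2530 higher, 3120 lower), 3891 with only the 6 Xist-high arrays (1739, 2152) and 4800 with only the 5 Xist-low arrays (2131, 2669). The Xist-low fit held no genotype term. With the dimmest genes left out (12128 remained) 3221 were lower, 171 of them 2-fold; on log2 minus the array median 584 were 2-fold lower. In wild-type kidneys the split was 1373 higher to 1866 lower (42.4% higher) but 1078 to 3228 (25%) on log2 minus the array median, where the median of all genes was -0.161; with an array left out the calls ran from 1930 (without E17R2 wild-type 1) to 4114. The R2NB comparison had 1 call with the mean over probe sets and 1 without cross-hybridising probe sets, and 2 to 18 with an array left out (18 without R2NB 3, 5 without R2NB 5); the genotype interaction had 0, 1, and 2 to 9 (9 without R2NB 3). The 3′ minus 5′ difference was 0.28 for Actb and, for Gapdh with an array left out, 0.06 (without R2E17 wild-type 3) to 0.23. Signs turned with the mean over probe sets for Apela (0.13), Spock2 (-0.05), Heyl (0.25), Lhx9 (-0.50) and Enah (0.03), without cross-hybridising probe sets for Hbb-b2 (0.11), Ywhaz (0.49) and Rac1 (-0.16), on log2 minus the median for Il6 (-0.30), Cidec (-0.30) and Ucp1 (-0.15), with Xist-low arrays for Ifi27 (0.05), and without E17R2 homozygous 9 for Acta2 (0.47, against -0.30 without E17R2 homozygous 2) and Mylk (0.53, against -0.49 without E17R2 homozygous 2). The causes were not tested. Second probe sets had the same sign for 81.5% of 233 genes at least 2-fold higher and 77.1% of 157 lower. Only 89 of the 233 and 26 of the 157 were themselves at least 2-fold in that direction. The median differences of the second probe sets were 0.67 and -0.29. No paired analysis was possible because the groups compared share fewer than 2 replicate numbers.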
